A study of Mus musculus with 6 samples.

Results

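The apolipoprotein L (Apol) genes were followed in left ventricular tissue of mice with sickle haemoglobin and of control mice. The list named 7 of them, Apol11b, Apol6, Apol7a, Apol8, Apol9a, Apol9b and Apol10b, and was chosen by symbol after earlier results of the same sickle-against-control comparison had shown Apol11b far above control. Rows of the array table that the platform annotation gives to exactly 1 of these symbols were taken, and 6 of the 7 genes had such a row, 1 each, among 21506 genes in all. Apol10b had no row under its symbol and was not analysed here. Because that comparison was used to choose the list, the values of the 6 measured genes in it are a description, and no test of them is given.

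Apolipoprotein L proteins are a family that shares a membrane-associated domain and differs from the lipid carriers of plasma such as ApoE and ApoA-I, with which it shares only part of its name. The founding human member circulates on high-density lipoprotein and lyses trypanosomes, whereas most other members are thought to act inside the cell, at membranes and in cell death and host defence. Several family members are known to be switched on by interferons, and in the mouse the family has grown by local gene duplication.

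Total RNA was measured on Affymetrix Mouse Gene 2.0 ST arrays, 1 for each of 3 sickle and 3 control male mice, at 10 to 14 weeks of age. Sickle mice carried the knock-in alleles B6;129-Hbatm1(HBA)Tow and, in the homozygous state, Hbbtm2(HBG1,HBB*)Tow, so that human alpha-globin and human gamma- and sickle beta-globin genes stood in place of the mouse genes. Control mice carried the same human alpha-globin allele with Hbbtm3(HBG1,HBB)Tow, a non-sickling human gamma- and beta-globin allele, so that all 6 mice made human haemoglobin on a mixed B6;129 background. The labels list separate mice but give no litter, and do not say whether the mice on the arrays were among those used for electrocardiography or optical mapping, so p-values measure the spread between these samples. The values are log2 expression after RMA, deposited by the authors, and a difference is the sickle mean minus the control mean on that log2 scale.

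The arrays had similar medians, from 5.65 to 5.69, and all 12 cardiomyocyte markers examined were above the median gene. Sickle replicate 3 stood apart, where 340 genes exceeded the average of the same group's remaining arrays by more than 2-fold (13 to 25 genes did so in any other array), and values without it are given where they matter. Control replicate 3 held more of the atrial markers than the other arrays (median of 5 markers 0.79 above the control mean, against -0.49 to -0.22 in the other 5 arrays).

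The Apol genes lie close together, which sets the frame for comparing them. In the RefSeq gene table for GRCm38.p6, 12 protein-coding Apol genes stand in one run on chromosome 15, with the splicing regulator Rbfox2 between Apol6 and the others, and their order is Apol6, Apol7a, Apol9a, Apol7b, Apol10a, Apol11a, Apol7c, Apol10b, Apol11b, Apol7e, Apol9b and Apol8. Promoter windows of 300 bases, 250 before and 50 after an annotated start, were available from RefSeq (GRCm38.p6) for 11 of these genes, among them 5 of the 6 measured members. The entry for Apol6 is missing. The 4 windows below are shown because Apol11a and Apol10a are the genes whose windows are most like that of Apol11b, and Apol9a (1 of its 2 windows) stands for the interferon-inducible pair Apol9a and Apol9b. Each is written 5′ to 3′ on the gene's own strand, and capitals mark the interferon response core, searched as 2 copies of GAAA separated by any 2 bases, on both strands.
Apol11b (chr15:77643237-77643536, minus strand): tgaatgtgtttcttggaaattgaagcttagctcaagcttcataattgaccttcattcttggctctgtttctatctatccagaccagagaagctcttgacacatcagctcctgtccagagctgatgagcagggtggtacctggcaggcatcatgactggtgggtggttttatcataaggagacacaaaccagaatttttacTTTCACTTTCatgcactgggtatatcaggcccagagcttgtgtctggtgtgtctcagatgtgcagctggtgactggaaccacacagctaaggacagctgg
Apol11a (chr15:77508019-77508318, plus strand): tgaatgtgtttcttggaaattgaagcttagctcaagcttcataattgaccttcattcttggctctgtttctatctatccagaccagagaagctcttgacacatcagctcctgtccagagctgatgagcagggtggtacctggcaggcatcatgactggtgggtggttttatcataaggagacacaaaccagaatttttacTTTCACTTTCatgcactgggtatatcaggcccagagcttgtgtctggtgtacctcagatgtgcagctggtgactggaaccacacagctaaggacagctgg
Apol10a (chr15:77476797-77477096, plus strand): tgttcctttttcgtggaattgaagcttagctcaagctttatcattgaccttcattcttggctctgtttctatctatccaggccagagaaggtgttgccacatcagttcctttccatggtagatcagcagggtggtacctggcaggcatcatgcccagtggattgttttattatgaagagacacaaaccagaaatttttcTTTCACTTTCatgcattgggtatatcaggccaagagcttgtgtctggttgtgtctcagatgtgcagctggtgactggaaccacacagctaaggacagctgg
Apol9a (chr15:77411031-77411330, minus strand): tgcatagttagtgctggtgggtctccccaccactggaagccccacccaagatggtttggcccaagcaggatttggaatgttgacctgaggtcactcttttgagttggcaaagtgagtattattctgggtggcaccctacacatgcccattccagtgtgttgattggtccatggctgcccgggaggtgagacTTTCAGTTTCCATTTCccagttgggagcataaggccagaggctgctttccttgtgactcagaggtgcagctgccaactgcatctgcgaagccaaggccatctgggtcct

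The Apol11b and Apol11a windows were the most alike of all pairs of different Apol genes. They had the same base at 298 of 300 positions, and the 2 differences, G251A and T252C (Apol11b base first, positions counted from 1 at the 5′ end of the window), fell on the first bases after the annotated start. Identity over aligned columns, gaps included, was 99.3% for this pair, 96.1% for Apol7b and Apol7e, 89.0% for Apol10a and Apol11b, and up to 88.1% for Apol9a and Apol9b. The interferon response core was present in windows of 8 of the 11 Apol genes, those of Apol9a, Apol9b, Apol10a, Apol10b, Apol11a, Apol11b, Apol7c and Apol7e. Over all 27025 genes with a RefSeq promoter window of the same length, 3.99% had it (3.44% of 32851 windows). The match in Apol11b and in Apol11a covered positions 201 to 210 of the window in both genes. In Apol9a, Apol9b, Apol7c and Apol7e a window held 2 matches that overlap. The letters AGATAA, a spelling among several read by GATA factors, and CCACACCC, read by erythroid Krüppel-like factors, were searched on both strands. They were found in none of the 11 genes' windows, against 12.7% and 4.09% of all genes with a window. Other spellings read by GATA factors were not searched, so nothing is said of their absence. The palindromic letters TTCNNNGAA, read by STAT factors, were found in 3 of the 11 genes (Apol10a, Apol11a and Apol11b, at positions 10 to 18 in each) and in 9.55% of all genes with a window. A match is a run of letters only, and its absence covers this window alone.

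Apol11b was the member with by far the largest difference between the groups. Its transcript cluster (17318815 in the deposited table) read 6.07, 5.52 and 5.42 in the control arrays and 8.51, 9.25 and 9.43 in the sickle arrays. The lowest sickle value lay 2.44 above the highest control value, so the groups did not overlap. The control mean was 5.67 ± 0.35 and the sickle mean 9.07 ± 0.49 (SD, n = 3), a difference of 3.40 ± 0.26 (SE), or 10.5-fold. No other gene of the 21506 had a difference of that size in either direction. Without sickle replicate 3 the difference was 3.21, and it ran from 3.21 to 3.67 with any 1 array left out.

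The other 5 measured members had differences from -0.07 to 0.29, and most of their rows were dim. By its mean, Apol9a was brighter than 61.57% of genes, Apol9b than 37.38%, Apol8 than 31.75%, Apol6 than 19.99% and Apol7a than 19.63%. A change in the dimmer transcripts may not have been measurable. Apol9a, an interferon-inducible gene of the mouse, read 6.84, 6.01 and 6.27 in control and 6.58, 6.77 and 6.65 in sickle. The 3 sickle values fell within the control range, and the difference was 0.29 ± 0.20 (SE). Its close relative Apol9b, likewise interferon-inducible, read 5.05, 5.17 and 4.65 in control and 4.90, 5.13 and 4.65 in sickle, a difference of -0.07 ± 0.17 with almost coincident ranges. The Apol9a and Apol9b genes are near copies, and whether probes of one read the other was not tested.

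Apol6, whose human counterpart is linked to apoptosis, read 3.93, 3.75 and 3.80 in control and 3.92, 4.12 and 3.98 in sickle. Of its sickle values 2 were above all control values and the third was 0.01 below the highest, with a difference of 0.18 ± 0.10 (SE). Apol7a read 3.67, 4.14 and 3.80 in control and 3.85, 4.09 and 3.80 in sickle, a difference of 0.04 ± 0.15. Apol8 read 4.65, 4.55 and 4.71 in control and 4.51, 4.63 and 4.63 in sickle, a difference of -0.04 ± 0.09. The ranges of Apol7a and Apol8 overlapped between the groups. Leaving out 1 array turned the sign of the difference for Apol7a (-0.06 to 0.18) and Apol9b (-0.22 to 0.06), and not for Apol6 (0.12 to 0.23), Apol8 (-0.088 to -0.0034) or Apol9a (0.11 to 0.52).

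**Figure D1:**
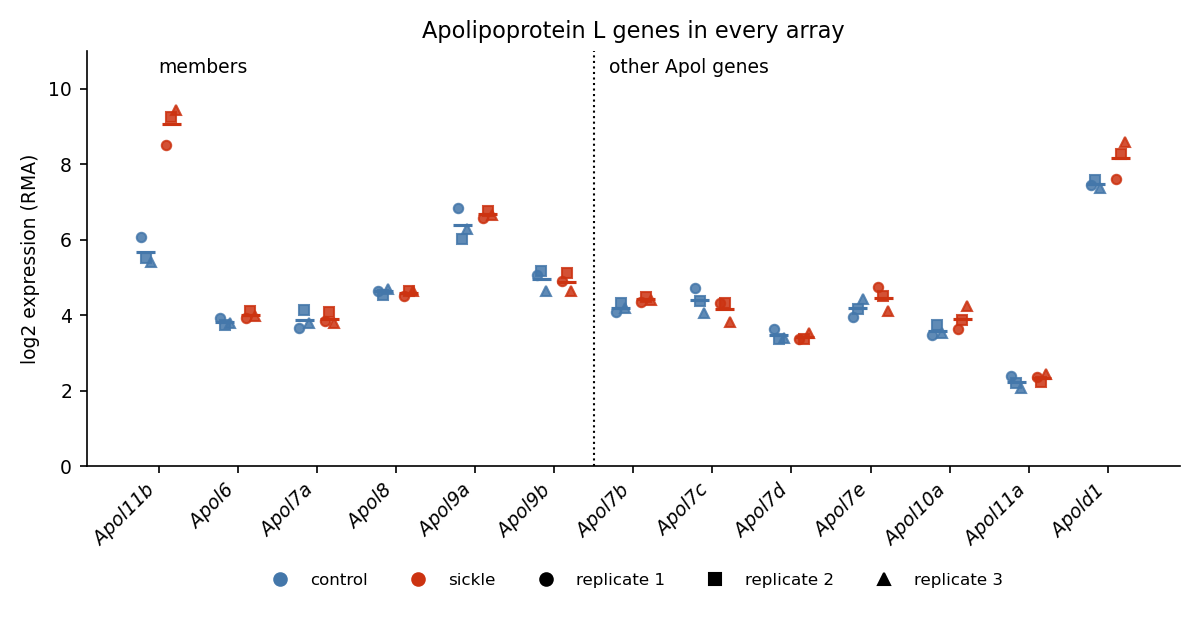
Log2 expression (vertical axis) of the 6 measured members and 7 other Apol genes, with 1 point for each array (blue control, red sickle, shape for the replicate) and a bar for the mean of 3 arrays. Apol11b has its sickle points at 8.51 to 9.43, clear of its control points at 5.42 to 6.07, and the other members overlap between the groups; levels of different genes come from different probes and are not comparable.

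Of the 6 measured members, 1 (Apol11b) lay without overlap between the groups. Over all 21506 genes, 16.0% had no overlap in either direction and 7.61% had none with sickle higher. Since the list was drawn up on this comparison, nothing is read from this count. The median difference of the 6 members was 0.11, that of the 5 without Apol11b 0.04, and that of all genes -0.01.

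Set against its paralogues within each array, Apol11b was above all 5 of them in each of the 3 sickle arrays. Relative to its control mean it read 2.84, 3.58 and 3.76 in sickle replicates 1, 2 and 3. The median of the other 5 members, each relative to its own control mean, was -0.02, 0.22 and 0.00 in those arrays. Their subtraction left 2.86, 3.36 and 3.77 in the sickle arrays and 0.30, -0.08 and -0.18 in the control arrays. Among the paralogues the most raised value in a sickle array was 0.39, for Apol9a in replicate 2, and the lowest was -0.31, for Apol9b in replicate 3. In control replicate 1, Apol9a (0.46) and Apol11b (0.40) were both above their control means.

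**Figure D2:**
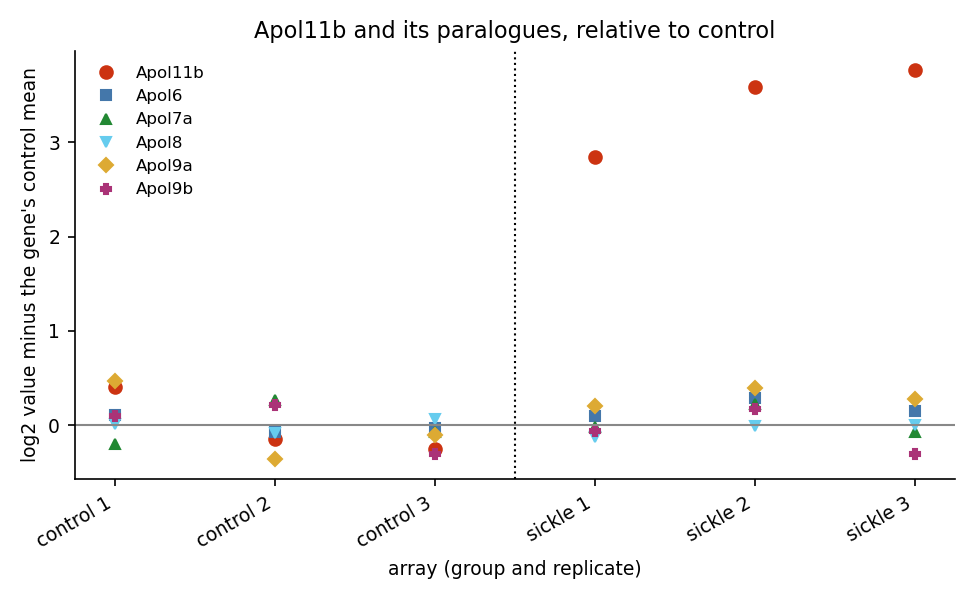
Log2 value minus the gene's control mean (vertical axis) in each of the 6 arrays for Apol11b (red circles) and its 5 measured paralogues (other symbols). Apol11b reads 2.84, 3.58 and 3.76 in the sickle arrays, where the paralogues lie between -0.31 and 0.39.

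Of the genes of the family outside the member list, 7 had a row. In limma 0 of the 7 passed the adjustment over all genes, against 0.181% of all genes, so nothing is read from this count. Their limma adjusted p ran from 0.496 to 0.910, and 1 had an unadjusted p under 0.05. In sickle 5 were higher and 2 lower, with a median difference of 0.22. Apol11a, whose promoter window is all but identical to that of Apol11b, read 2.40, 2.20 and 2.08 in control and 2.35, 2.22 and 2.45 in sickle. Its difference was 0.12 ± 0.12 (SE; 95% interval -0.16 to 0.39, limma adjusted p = 0.787), and the groups overlapped. The row of Apol11a was among the dimmest on the array, brighter than only 1.98% of genes by its mean, so a change in the transcript may not have been measurable there. Which probes Apol11a and Apol11b share was not tested.

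Apol10a, the gene with the next most similar window, read 3.47, 3.75 and 3.53 in control and 3.63, 3.87 and 4.23 in sickle (difference 0.33 ± 0.16, limma adjusted p = 0.612). Without sickle replicate 3, its highest array, the difference was 0.16. Apol7b read 4.08, 4.33 and 4.19 in control and 4.36, 4.48 and 4.42 in sickle, without overlap but by a difference of 0.22 ± 0.10 (limma adjusted p = 0.595). Apol7e differed by 0.26 ± 0.19, Apol7c by -0.23 ± 0.20 and Apol7d by -0.05 ± 0.11, all with overlapping groups (limma adjusted p = 0.701, 0.755 and 0.910). Without sickle replicate 3 these were 0.43, -0.06 and -0.10. With any 1 array left out, Apol7e ran from 0.11 to 0.43, Apol7c from -0.39 to -0.06, Apol11a from 0.04 to 0.20 and Apol10a from 0.16 to 0.47, while Apol7d changed sign (-0.10 to 0.03). The upper 95% limits of these 6 genes (Apold1 left aside) were at most 0.71. Beside Apol11a, their rows were dim as well, brighter than 13.46% (Apol7d) to 26.49% (Apol7e) of genes. Apol7d is not among the 12 protein-coding Apol genes of the chromosome 15 run.

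Apold1 also lies outside the chromosome 15 run and encodes a protein of endothelial cells with an apolipoprotein L domain. It read 7.44, 7.58 and 7.38 in control and 7.61, 8.27 and 8.58 in sickle. Sickle replicate 1 lay just above the highest control value and the other two lay further up, a difference of 0.69 ± 0.23 (SE, limma adjusted p = 0.496; unadjusted p = 0.0178). Without sickle replicate 3 the difference was 0.47 (limma adjusted p = 0.535). Of 10 endothelial markers 0 were called (against 0.181% of all genes), 7 were higher and 3 lower, with a median difference of 0.10. The largest difference was that of Vwf, 1.13 ± 0.22 (SE, limma adjusted p = 0.207), without overlap. The summed unlogged signal of the 10 markers was 7787 to 8565 in control and 8507 to 8884 in sickle. The part of endothelial cells in the Apold1 values was not tested.

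Genes beside the Apol run were also read. Of 26 that lie between Apol genes or among the 5 nearest protein-coding genes on either side, 14 had a row. Of these, 3 were higher and 11 lower in sickle, with a median difference of -0.04. In limma 0 of the 14 passed, against 0.181% of all genes, so nothing is read from that count (1 had an unadjusted p under 0.05). Myh9, the non-muscle myosin heavy chain next to Apol8, was the neighbour with the smallest p, at 0.49 ± 0.15 (limma adjusted p = 0.473; 0.32 without sickle replicate 3). Foxred2 and Zfp647 differed by 0.18 ± 0.12 and -0.22 ± 0.15 (limma adjusted p = 0.685 and 0.689). Mb, the myoglobin gene beside Apol6, differed by -0.04 ± 0.08. 

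**Figure D3:**
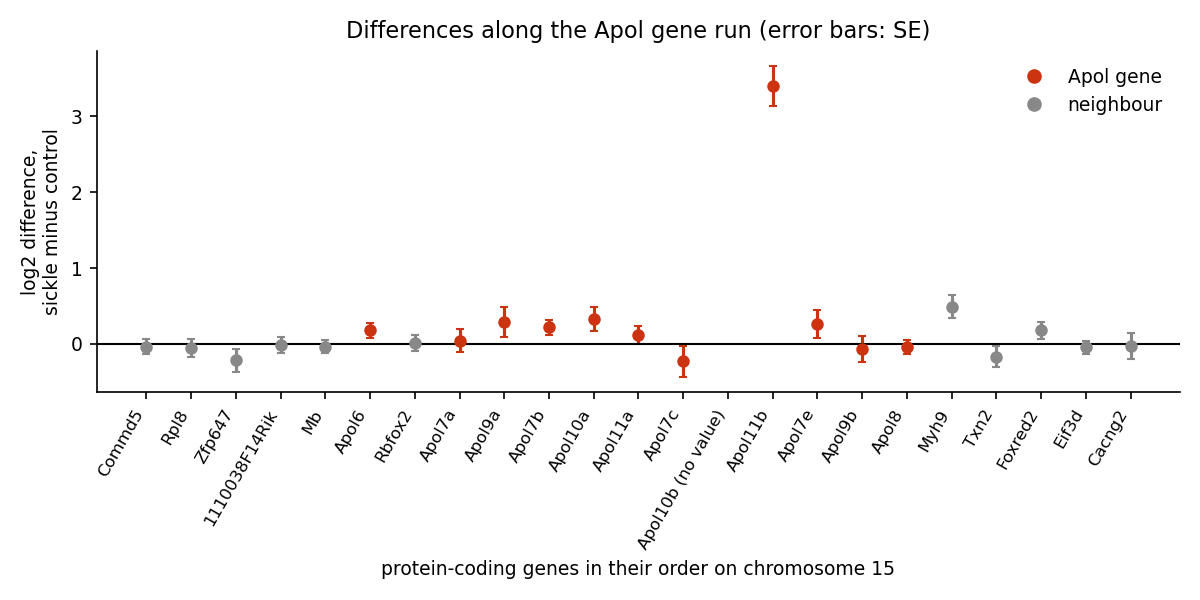
Log2 difference, sickle minus control (vertical axis, error bars SE), for protein-coding genes in their order on chromosome 15, Apol genes in red and neighbours in grey; spacing is by order, not by distance. Apol11b stands at 3.40 while the other Apol genes lie between -0.23 and 0.33 and the neighbours between -0.22 and 0.49.

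The genes with values most like those of Apol11b were sought by the root mean square distance over the 6 arrays, each gene taken relative to its control mean. This distance mostly follows the size of the sickle difference, and it describes these arrays only. Slc4a1, the anion exchanger band 3 of red cells, was nearest at a distance of 0.14 log2 units. Slc4a1 read 6.997, 6.44 and 6.47 in control and 9.30, 10.00 and 10.55 in sickle. Its sickle arrays ran in the same order as those of Apol11b, and control replicate 1 was highest within control for both genes. Control replicates 2 and 3 ran in the opposite order in Apol11b, at 5.52 and 5.42.

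The other 9 were further away, at 0.64 to 0.94. They were the pseudogene Cyp4b1-ps2, the protease gene Ctse, the RNA-tailing enzyme gene Tent5c, the carbonic anhydrase gene Car2, the cell surface antigen gene Cd24a, Epb42 of the red-cell membrane skeleton, the theta-globin gene Hbq1a, Trim10, a factor of late red-cell development, and the antiviral enzyme gene Rsad2. Of the 10 nearest genes 3 (Slc4a1, Epb42 and Trim10) are in the list of red-cell markers. That list leaves out the theta-globin gene Hbq1a, so the count is of listed markers and not of all red-cell genes. Without sickle replicate 3, 9 of the 10 were also among the 10 nearest. Within sickle, Ctse, Trim10 and Rsad2 were highest in replicate 3, as Apol11b and Slc4a1 were. Cyp4b1-ps2, Tent5c, Car2, Cd24a, Epb42 and Hbq1a were highest in sickle replicate 2. The nearest other Apol gene on chromosome 15 was Apol10a, at a distance of 2.19.

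**Figure D4:**
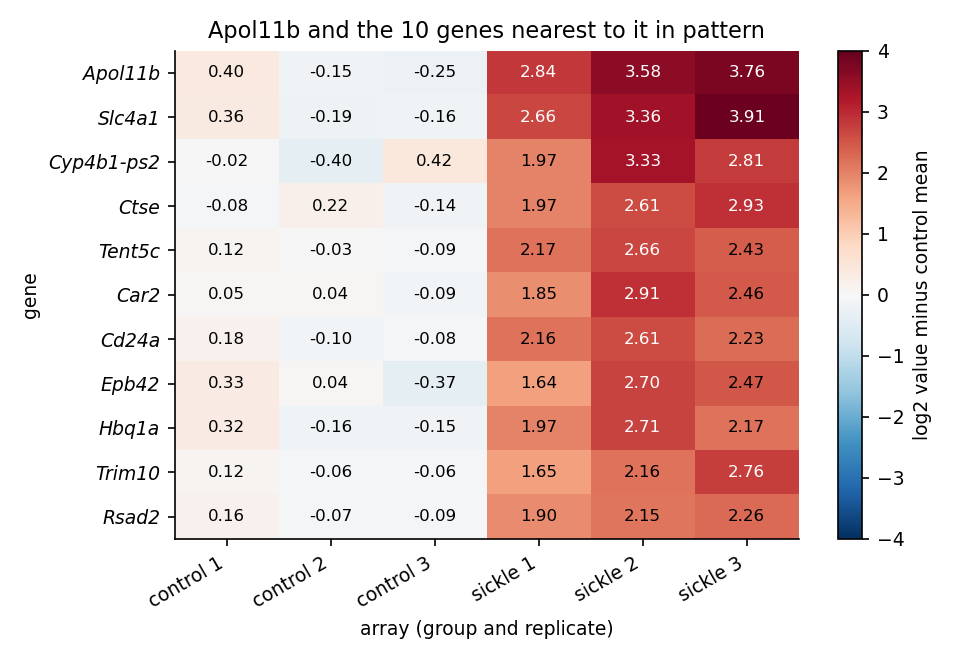
Heat map of log2 values minus the control mean (colour and printed numbers) for Apol11b and the 10 genes nearest to it (rows) in the 6 arrays (columns). Sickle replicate 1 has the lowest sickle value in every row, 2.84 for Apol11b and 2.66 for Slc4a1.

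Red-cell markers were higher in the same arrays as Apol11b. Of 25 measured markers, 22 were higher in sickle and 10 rose (limma, adjusted p under 0.05; 0 fell), 40.0% of the list against 0.181% of all genes (0.167% called higher), with a median difference of 0.73. The 10 were Slc4a1 (3.31 ± 0.30), Epb42 (2.27 ± 0.29), Trim10 (2.19 ± 0.25), Isg20 (2.00 ± 0.18), Slc25a37 (1.88 ± 0.22), Ube2l6 (1.78 ± 0.15), Mkrn1 (1.77 ± 0.19), Bpgm (1.71 ± 0.12), Rhag (1.57 ± 0.21) and Tspan33 (1.05 ± 0.14). Taken array by array, the list's median stood 0.66, 0.78 and 0.77 above the control mean in sickle replicates 1, 2 and 3, and at -0.06 to 0.02 in the control arrays. Its summed unlogged signal was 5471 to 6264 in control and 9465 to 12170 in sickle. The part of red-cell RNA in the Apol11b values was not tested, and in whole tissue more cells of a type and more RNA per cell cannot be told apart. The count of 10 fell to 3, 1 and 0 without control replicates 1, 2 and 3, and to 4 and 5 without sickle replicates 2 and 3. The list was compiled with earlier results of these arrays known, so its share of called genes may reflect that choice, and nothing is read from it.

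Interferon-stimulated genes were counted because Apol9a, Apol9b and other Apol genes are known to respond to interferon. Of 40 measured genes, 19 were higher and 21 lower in sickle, with a median difference of -0.03, and 3 rose (limma, adjusted p under 0.05; 7.50% of the list against 0.181% of all genes; 0 fell). These were Rsad2 (2.10 ± 0.13, adjusted p = 0.00274), Isg20 and Ube2l6, of which the last 2 are in the red-cell list as well. Without those 2 genes, 17 of 38 were higher, 1 was called and the median difference was -0.05. The interferon list, too, was compiled with earlier results of these arrays known, so nothing is read from its share of called genes. Rsad2 read 8.06, 7.82 and 7.80 in control and 9.79, 10.04 and 10.15 in sickle, without overlap. Without control replicate 2 or control replicate 3, Rsad2 was the 1 gene of the list still called. Isg15, a ubiquitin-like protein made on interferon exposure, had 1.12 ± 0.24 (limma adjusted p = 0.270), while Igtp, a GTPase induced by interferon gamma, had -0.42 ± 0.12 (limma adjusted p = 0.437).

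Apolipoproteins outside the family were counted as well. Of 17 measured genes, 8 were higher and 9 lower, with a median difference of -0.08. In limma 0 were called, against 0.181% of all genes, so nothing is read from that count (1 had an unadjusted p under 0.05). Apoo and Apool, whose proteins sit in the mitochondrial inner membrane, had -0.30 ± 0.12 and -0.29 ± 0.13 (limma adjusted p = 0.565 and 0.585), and Apobr, a receptor for ApoB, had 0.23 ± 0.11 (limma adjusted p = 0.596). Apoe, the lipid carrier, read 6.94, 6.94 and 6.89 in control and 7.06, 7.20 and 8.40 in sickle, 0.63 higher on average (SE 0.32, limma adjusted p = 0.613) and highest in sickle replicate 3. Without that array the differences were 0.21 for Apoe, -0.19 for Apoo, -0.16 for Apool and 0.29 for Apobr, and the list's median was 0.00.

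**Figure D5:**
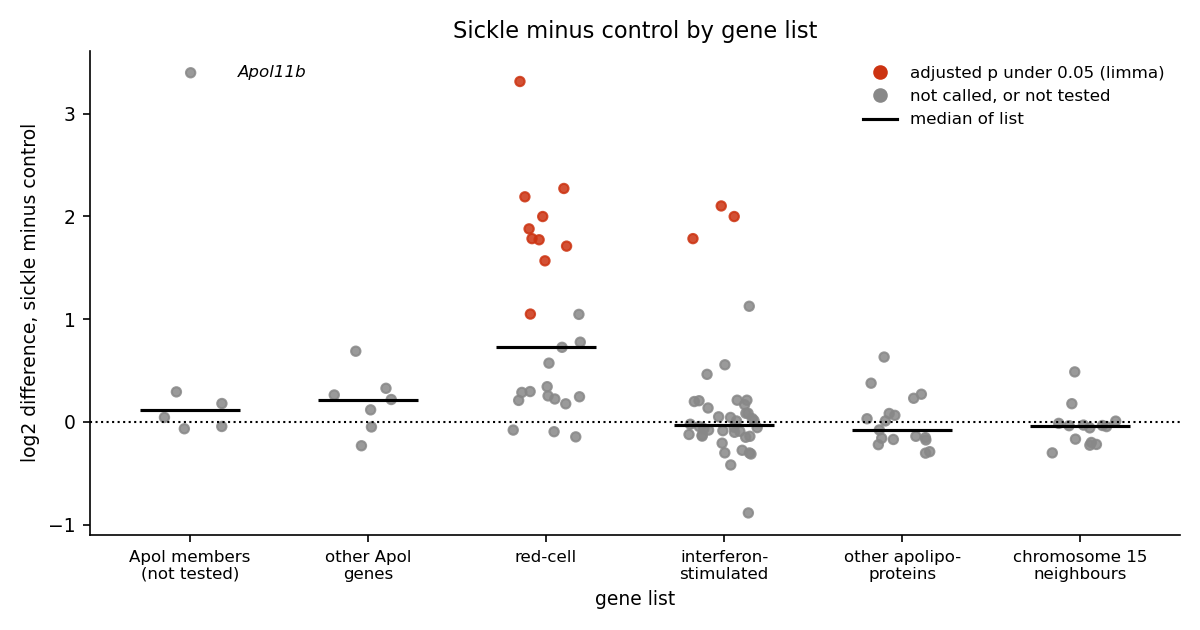
Log2 difference, sickle minus control (vertical axis), with 1 point for each gene of 6 lists and a black bar at the list's median; red marks genes with an adjusted p under 0.05 in limma, which is not shown for the Apol members. Apol11b at 3.40 lies level with Slc4a1 at 3.31 in the red-cell list, and the medians of the interferon, apolipoprotein and neighbour lists lie between -0.08 and -0.03.

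Markers of other cell types, with hepatocytes as a type from outside the heart, were read in the same way. Of 11 lymphocyte markers 11 were higher and Cd79a, of the B-cell receptor, rose by 1.12 (limma adjusted p = 0.0484; list median 0.65 over 6 arrays and 0.61 without sickle replicate 3, when 0 were called). Their summed unlogged signal was 318 to 359 in control and 482 to 535 in sickle. Macrophage markers (10 of 10 higher, 0 called) had a median of 0.47, and 0.10 without sickle replicate 3. Fibroblast markers (9 of 10 higher, 0 called) had 0.86, and 0.08 without that array. Platelet markers (4 of 7 higher, 0 called), neutrophil markers (8 of 10, 0 called) and hepatocyte markers (3 of 5, 0 called) had medians of 0.02, 0.14 and 0.04. The part of these cells in the Apol11b values was not tested. Over all genes 0.181% were called, and nothing is read from the counts of called markers.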

How the data were processed

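The log2 values were deposited by the authors after RMA (background correction, quantile normalisation between arrays and 1 summary value for each transcript cluster), as RMA is named without a version per the submitters' processing notes. The range of the values showed the log2 scale; build, settings and scan dates: not given in the sources used here. Of 25293 rows, 22030 had 1 gene symbol in the platform annotation, and the row with the highest mean stood for a gene, which left 21506 genes. Limma 3.58.1 (R 4.3.3; lmFit and eBayes, group as the only term, two-sided, Benjamini-Hochberg over all genes) gave differences, moderated standard errors and calls at an adjusted p of 0.05, and was checked on simulated data. Members and gene lists were chosen with earlier results of these data known. Named genes were the members, other Apol genes, the called genes of the main lists or otherwise the 3 with the smallest p (predicted genes passed over), and the 10 genes nearest to Apol11b. Cd79a, Mb, Apoe, Isg15, Igtp and Vwf were added after their values were seen. Promoter windows were aligned with Biopython 1.88, and figures drawn with matplotlib 3.10.9. Arrays have no read depth, so their number, 3 a group, limits the precision.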

Additional observations from a re-analysis of the deposited data

How the results depend on the processing

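The difference of Apol11b stayed between 3.21 and 3.67, and its excess over the paralogue median (3.31 over 6 arrays) between 3.10 and 3.55, with arrays weighted, medians centred, quantiles normalised again, a gene's rows averaged, the replicate number as a block or any 1 array left out; no member has a second row, so no dimmer row could be tried. The count of 39 called genes was 12 with the replicate block, 31 to 50 under the other settings, and 4 to 36 with 1 array left out. Red-cell genes called (10) came to 3 with the block and 0 to 9 with 1 array left out, and interferon-stimulated genes called (3) to 1 to 3. Deviations of same-numbered arrays from their group means had correlations of 0.11, -0.05 and 0.05. With 3 arrays a group, such values cannot show whether the numbers pair the mice, and the labels do not say. The other Apol genes, apolipoproteins and chromosome 15 neighbours had 0 calls under each setting tried. Nothing is read from these counts, since only 0.181% of all genes were called in the main fit. The cause of the changes was not tested. The search for nearest genes without sickle replicate 3 was added after seeing the data. Dim rows, such as that of Apol11a, limit what these arrays can show.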
